A study of Mus musculus with 2 samples.

Results

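The 9 genes described here are the Notch receptors Notch1, Notch2, Notch3 and Notch4, the ligands Jag1 and Jag2, and the target genes Hes1, Hey1 and Heyl. They were taken by symbol from the 27998 genes counted in 2 single-cell RNA-seq libraries of sorted bone cells. One library came from vehicle-injected and the other from teriparatide-injected Gli1-CreERT2;Ai9 mice of mixed background, 1 month old, and teriparatide is a fragment of parathyroid hormone used to build bone. Both groups first received tamoxifen on 3 days, which switches on the red protein tdTomato in cells that use Gli1 and in their descendants. Teriparatide was then given i.p. at 400 ng per g of body weight on 3 days, and the control mice received the solvent alone on the same schedule. Cells negative for CD31, CD45 and Ter119 and positive for tdTomato were sorted from the crushed metaphysis of the femur. The sort was thus aimed at cells that a Gli1 allele had marked and not at every cell of the bone. The study asked how teriparatide changes this mixed population. Each condition had 1 library, so every interval below is a 95% interval for counting error only, no test of the treatment is possible, and no difference between mice is measured.

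Notch receptors are cut after they bind a Jagged or Delta-like ligand on a neighbouring cell. The freed intracellular part then joins the DNA-binding protein Rbpj and switches on Hes and Hey genes, which code for transcriptional repressors. In bone the pathway is known for holding back osteoblast differentiation of marrow stromal cells, for acting in osteocytes, and, through Notch3, for the identity of the mural cells that wrap small vessels.

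Cells were assigned to classes by fixed marker genes and kept with 200 to 6000 detected genes and no more than 10% mitochondrial unique molecular identifiers (UMIs, one per captured mRNA). This left 549 vehicle and 1217 teriparatide cells. The classes are OB-like (osteoblast, 108 and 139 cells), preOB-like (preosteoblast, 30 and 43), COP-like (chondrocyte-like osteoprogenitor, 65 and 254) and MALP-like (marrow adipogenic lineage precursor, 164 and 85), and they held 66.8% and 42.8% of the kept cells. Of these 888 cells, 87.4% also fell in a cluster of the same name. This share differed by class: preOB-like 75.3%, MALP-like 78.3%, OB-like 84.2% and COP-like 99.7%. The OB-like class was further divided into mature OB-like (91 and 100) and osteocyte-like cells (17 and 39). Although the sort was meant to exclude blood cells, 109 vehicle and 594 teriparatide cells carried hematopoietic or erythroid markers, and they serve here as a comparison. Of the cells of the 4 classes that could be assigned a sex by their transcripts, 50.8% of the vehicle and 90.5% of the teriparatide cells were male, so ratios between the libraries are also given within each sex. The libraries shared 2 barcodes, of which 1 belonged to kept cells. A level (CPM) is the sum of a gene's UMIs over a class for every 1000000 UMIs of that class in a library. Where a pair of values is given, the vehicle library comes first and the teriparatide library second. Since CPM is not divided by gene length, levels are compared between classes and not between genes.

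**Figure D1:**
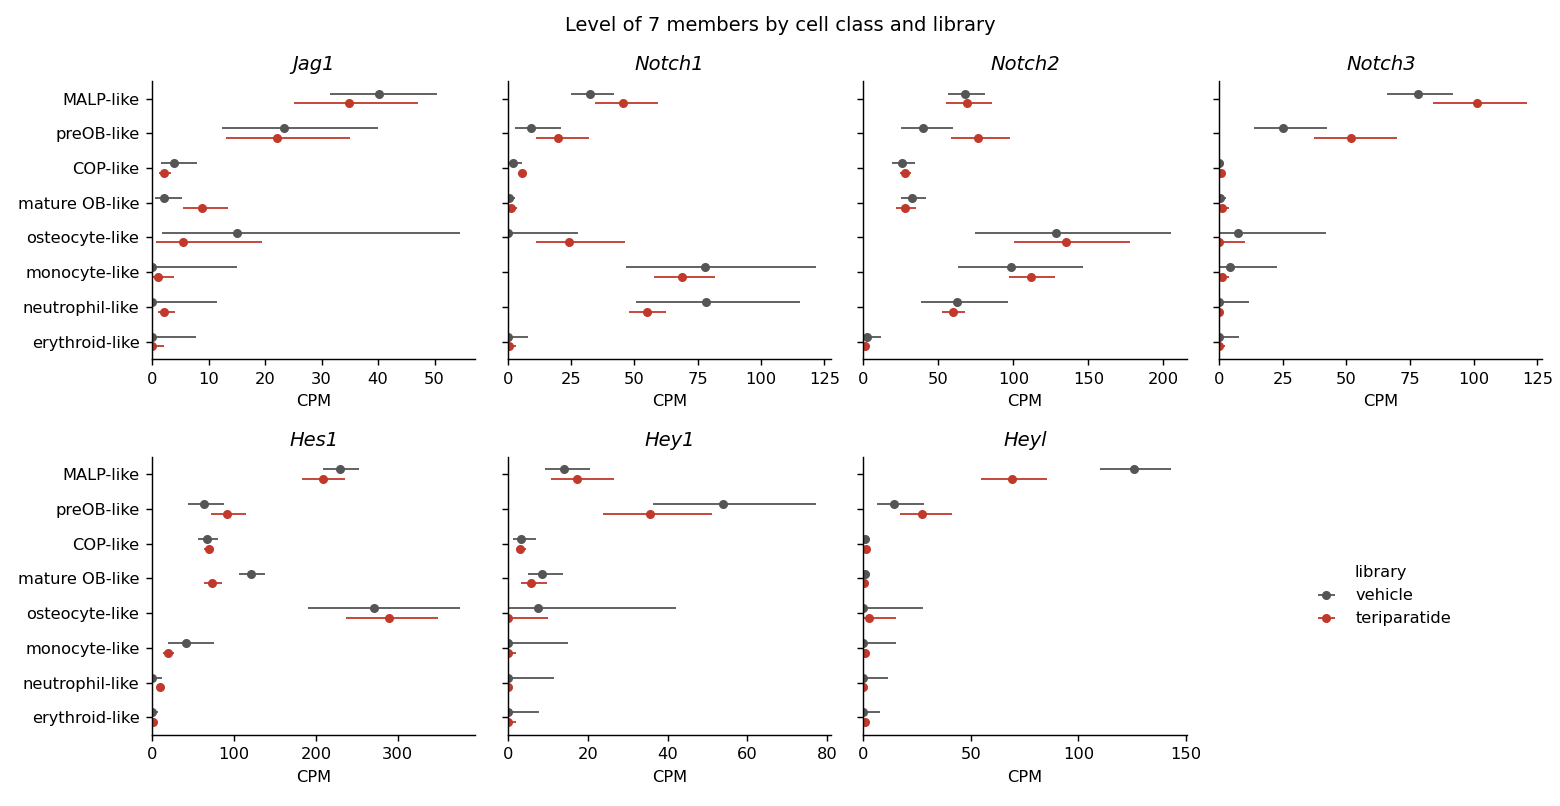
Level in CPM (x axis, from 0, one scale per gene) of the 7 members with enough UMIs, in 8 cell classes (y axis) of the vehicle (grey) and teriparatide (red) library, with exact Poisson 95% intervals. Jag1, Notch3 and Heyl sat in the MALP-like and preOB-like cells, and Hey1 peaked in the preOB-like cells. Notch2 and Hes1 had their highest values in the osteocyte-like cells. These were within counting error of the monocyte-like cells for Notch2 and of the vehicle MALP-like cells for Hes1.

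Jag1 (ENSMUSG00000027276, GRCm38 chromosome 2 from 137081456 to 137116644, minus strand), which codes for a membrane-bound ligand, was the one Notch ligand among the members with more than a few UMIs. Its level in MALP-like cells was 40.2 CPM (31.5 to 50.4) with vehicle and 34.9 CPM (25.1 to 47.1) with teriparatide. The preOB-like cells followed with 23.4 CPM (12.5 to 40.0) and 22.1 CPM (13.1 to 35.0), and the interval of the ratio between these classes included 1 in both libraries. Against the COP-like cells, at 3.86 and 2.09 CPM, the MALP-like level was 10.4-fold (4.81 to 26.8) and 16.7-fold (9.18 to 31.8) higher. The OB-like cells held 2.86 CPM (6 UMIs) and 8.36 CPM (23 UMIs). Of these, 4 and 21 UMIs were in the mature OB-like cells, and all 21 in the teriparatide library came from cells called male. That library had 71 male and only 3 female mature OB-like cells, and 5 cells held 15 of the 21 UMIs. No UMI of Jag1 was found in 37 vehicle and 157 teriparatide erythroid-like cells, which allows shares of up to 8.11% and 1.91% of cells with a UMI. Jag1 was thus shared by the MALP-like and preOB-like cells.

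Jag2 (ENSMUSG00000002799, chromosome 12 from 112907819 to 112929776, minus strand), the other Jagged ligand, had 1 UMI in all kept vehicle cells and 5 in all kept teriparatide cells. Notch4 (ENSMUSG00000015468, chromosome 17 from 34564268 to 34588503, plus strand), a receptor known from endothelial cells, had 9 and 18 UMIs, of which 2 and 6 were in the MALP-like cells. Both genes were too sparse for a comparison between classes. The Delta-like ligands were equally scarce, with 6 and 11 UMIs of Dll1 and 1 and 2 UMIs of Dll4 over all kept cells. Over the 4 classes and both libraries, Dll3 had 1 UMI and Dlk1 had 2. Dlk2 codes for a Delta-like protein without the usual receptor-binding domain. Among the 4 classes it was found in the COP-like cells, at 8.81 CPM (5.04 to 14.3) and 10.2 CPM (8.06 to 12.7), and at no more than 1.80 CPM in the other 3 classes. Of its COP-like UMIs, 16 and 75 were on the columnar side (nearer to columnar-chondrocyte markers) and 0 and 3 on the resting side. The hypertrophic-like cells, a separate gate of 5 and 22 cells, held more, at 136 CPM (68.1 to 244) and 24.9 CPM (14.7 to 39.3).

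Notch3 (ENSMUSG00000038146, chromosome 17 from 32120820 to 32166852, minus strand) was hardly detected in the COP-like and OB-like cells. Its level in the MALP-like cells reached 78.2 CPM (65.9 to 92.0) and 101.3 CPM (84.1 to 121). The preOB-like cells held 25.2 CPM (13.8 to 42.3) and 51.6 CPM (37.2 to 69.8), so that the MALP-like level was 3.103-fold (1.79 to 5.82) and 1.96-fold (1.37 to 2.86) higher. Among COP-like cells, by contrast, 0 vehicle and 5 teriparatide UMIs of Notch3 were counted. With 3 counts taken for the vehicle COP-like cells, the vehicle MALP-like level was 47.3-fold higher, a value that leaves out counting error. With teriparatide it was 155-fold higher (64.6 to 486). Only 2 and 3 UMIs were in OB-like cells. After each cell was thinned to 4600 UMIs, Notch3 was seen in 47 of 137 vehicle (34.3%, exact interval 26.4 to 42.9) and 30 of 82 teriparatide MALP-like cells (36.6%, 26.2 to 48.0). It was seen in none of 28 and 115 thinned erythroid-like cells, which allows shares of up to 10.7% and 2.61% of cells with a UMI at that depth. Such limits are on detection and not on expression. Without thinning the MALP-like shares were 47.0% and 65.9%, at median depths of 11083 and 13697 UMIs.

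Notch3 and Jag1, a receptor and a ligand that share their highest class among the 4, are shown by the stretch upstream of the annotated gene. CpG dinucleotides are in capitals. They were chosen because their levels were higher in MALP-like than in COP-like or OB-like cells beyond counting error in both libraries. The same held for Notch1, whose RefSeq promoter window lies inside the annotated gene, and for Hes1 and Heyl, which had no such window. The sequences are the parts of the RefSeq promoter windows on GRCm38.p6 that lie outside the annotated gene, are written 5′ to 3′ on the minus strand, and lie at chr17:32166891-32167140 and chr2:137116645-137116770.
Notch3: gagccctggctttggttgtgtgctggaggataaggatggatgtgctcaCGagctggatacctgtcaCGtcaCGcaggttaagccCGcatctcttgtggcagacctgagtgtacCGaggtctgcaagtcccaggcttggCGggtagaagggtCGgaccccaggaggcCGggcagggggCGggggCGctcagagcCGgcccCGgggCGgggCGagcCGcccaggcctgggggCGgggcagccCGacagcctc
Jag1: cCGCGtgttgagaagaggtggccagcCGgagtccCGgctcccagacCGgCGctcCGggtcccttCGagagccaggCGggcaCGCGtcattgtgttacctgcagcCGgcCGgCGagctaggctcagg
The 250 bases upstream of the RefSeq start hold 17 CpG for Notch3 and 20 for Jag1, against a median of 6 over 32851 promoters. As many were in 23.5% and 17.9% of all promoters. The windows of the other members in the table held 16 (Notch1), 34 (Notch2), 4 (Notch4) and 54 (Jag2), so such counts were not particular to Notch3 and Jag1. The core letters that Rbpj is known to bind, TGGGAA on either strand, were in none of the 6 member windows found in the table (Notch1, Notch2, Notch3, Notch4, Jag1 and Jag2) and in 21.6% of all promoters. The letters CACGTG, which read the same on both strands, were in none of the 6 and in 6.02% of all promoters. These are matches of letters only.

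Genes of mural cells were counted beside Notch3. The 4 vehicle and 5 teriparatide cells gated as mural-like, by Rgs5, Acta2, Myh11, Tagln, Kcnj8, Abcc9 and Cspg4, all held Notch3, with 4 to 28 and 3 to 17 UMIs per cell. Their summed level was 845 CPM (631 to 1108) and 840.0 CPM (619 to 1114), which was 10.8-fold (7.71 to 14.9) and 8.29-fold (5.81 to 11.7) above the MALP-like cells. The summed level of the 7 mural genes was 182 and 485 CPM in the MALP-like and 248 and 226 CPM in the preOB-like cells, with Tagln the most abundant of the 7 in each. In the vehicle library the sum was higher in the preOB-like than in the MALP-like cells, unlike Notch3. In the teriparatide library it was higher in the MALP-like cells, like Notch3. Abcc9, one of the 7, was at 63.0 and 107.9 CPM in the MALP-like and at 41.4 and 67.6 CPM in the preOB-like cells. The part of the mural genes in the Notch3 levels was not tested. Within the MALP-like cells, the 105 vehicle and 30 teriparatide cells without a UMI of Rgs5, Acta2, Myh11 or Tagln held 68.0 CPM (53.6 to 85.1) and 79.96 CPM (53.1 to 116) of Notch3. Cells with a UMI of Abcc9, Kcnj8 or Cspg4 were not left out for it. Abcc9 was seen in 57 of all 164 vehicle and 43 of all 85 teriparatide MALP-like cells. Within the preOB-like cells, leaving out those with a UMI of Rgs5, Acta2, Myh11 or Tagln brought Notch3 from 25.2 to 13.6 CPM in the vehicle library. In the teriparatide library it went from 51.6 to 13.2 CPM. Most preOB-like Notch3 was thus in few cells, and the 5 cells with the most UMIs held 92.9% and 81.0% of it.

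Notch1 (ENSMUSG00000026923, chromosome 2 from 26457903 to 26516663, minus strand), the receptor best known from blood and lymphoid development, was found both in the MALP-like and in the blood cells. Among the 4 classes the MALP-like cells were highest with 32.6 CPM (24.9 to 41.9) and 45.7 CPM (34.4 to 59.4), 3.62-fold (1.47 to 11.6) and 2.32-fold (1.31 to 4.34) above the preOB-like cells. The COP-like cells held 2.20 and 5.49 CPM, and the mature OB-like cells 1 and 3 UMIs. Osteocyte-like cells held 0 and 9 UMIs, the latter at 24.3 CPM (11.1 to 46.1), and 5 cells held 8 of the 9. The monocyte-like cells reached 77.9 CPM (46.9 to 122) and 68.9 CPM (57.6 to 81.8), and the neutrophil-like cells 78.1 CPM (50.6 to 115) and 54.8 CPM (47.9 to 62.5). Monocyte-like cells thus exceeded MALP-like cells by 2.39-fold (1.35 to 4.06) and 1.51-fold (1.09 to 2.11), whereas the neutrophil-like excess in the teriparatide library, 1.20-fold (0.891 to 1.64), was within counting error. The erythroid-like cells held 0 and 1 UMI.

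Notch2 (ENSMUSG00000027878, chromosome 3 from 98013527 to 98150361, plus strand), the receptor linked to osteoclast formation and to osteocytes, was the broadest. It was seen in all 4 classes, from 25.9 CPM in the vehicle COP-like to 76.2 CPM in the teriparatide preOB-like cells. Its highest class was MALP-like in the vehicle (67.9 CPM, 56.5 to 80.9) and preOB-like in the teriparatide library, where it stood 1.11-fold (0.783 to 1.56) above the MALP-like level of 68.9 CPM (54.9 to 85.4). Inside the OB-like class, however, the osteocyte-like cells held 128 CPM (74.7 to 205) and 135 CPM (100.2 to 178), against 32.6 CPM (25.1 to 41.6) and 27.7 CPM (21.4 to 35.3) in the mature OB-like cells. This was a 3.94-fold (2.16 to 6.81) and 4.87-fold (3.30 to 7.14) difference, and the osteocyte-like cells also exceeded the MALP-like cells in both libraries. The osteocyte-like values rest on 17 and 50 UMIs, of which 5 cells held 94.1% and 48%. The intervals do not cover such differences between cells. The monocyte-like cells, at 98.3 CPM (63.0 to 146) and 112 CPM (97.3 to 128), were within counting error of the osteocyte-like cells (osteocyte-like over monocyte-like 1.30-fold, 0.657 to 2.53, and 1.21-fold, 0.869 to 1.65). Within the COP-like cells, those nearer to resting-chondrocyte markers held 1.96-fold (0.951 to 3.82) and 1.48-fold (1.10 to 1.99) more Notch2 than those nearer to columnar markers. The vehicle interval includes 1. Near the split between the 2 sides lay 8 of 15 vehicle and 30 of 70 teriparatide resting-side cells, and 11 of 50 and 16 of 184 columnar-side cells.

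Heyl (ENSMUSG00000032744, chromosome 4 from 123233556 to 123249875, plus strand), a repressor of the Hey family and a known target of Notch3 in mural cells, had nearly the same limits as Notch3. MALP-like cells held 126 CPM (110.3 to 143) with vehicle and 68.9 CPM (54.9 to 85.4) with teriparatide. The preOB-like cells held 14.4 CPM (6.22 to 28.4) and 27.1 CPM (17.0 to 41.0), which put the MALP-like level 8.75-fold (4.37 to 20.5) and 2.55-fold (1.58 to 4.28) higher. Outside these classes Heyl had 1 and 9 UMIs in the COP-like cells and 1 and 2 in the OB-like cells. Of the 9 UMIs with teriparatide, 7 were on the resting side, which held 70 of the 254 COP-like cells. Thinned to 4600 UMIs, Heyl was seen in 39.4% (31.2 to 48.1) of the vehicle and 23.2% (14.6 to 33.8) of the teriparatide MALP-like cells. In the vehicle MALP-like cells, 63 of the 77 cells with Notch3 also held Heyl (81.8%), against 48.3% of the cells without Notch3. In the teriparatide library these shares were 48.2% and 34.5%. Cells with Notch3 were deeper in both libraries, with medians of 12252 against 9858 and 15348 against 11799 UMIs, and after thinning to equal depth the shares with Heyl were 46.8% (32.1 to 61.9) against 35.6% (25.7 to 46.3) and 40.0% (22.7 to 59.4) against 13.5% (5.59 to 25.8). Heyl was not alone in this, since in the thinned vehicle cells Hes1 was seen in 63.8% against 45.6% and Notch1 in 21.3% against 8.89%.

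Hey1 (ENSMUSG00000040289, chromosome 3 from 8663359 to 8667256, minus strand), a repressor of the same family, was highest among the 4 classes in the preOB-like cells in both libraries. There it reached 54.0 CPM (36.4 to 77.1) and 35.7 CPM (23.9 to 51.2). This was 3.83-fold (2.19 to 6.73) and 2.05-fold (1.13 to 3.77) above the MALP-like cells, which held 14.1 CPM (9.22 to 20.7) and 17.4 CPM (10.8 to 26.7). Against the OB-like cells, at 8.58 and 5.09 CPM, the preOB-like level was 6.29-fold (3.40 to 11.99) and 7.01-fold (3.58 to 14.3) higher. The COP-like cells held 3.30 and 3.14 CPM. Outside the 4 classes, the 4 and 5 mural-like cells held 195 CPM (101 to 340) and 35.0 CPM (4.24 to 126) of Hey1. Not a single UMI of Hey1 was found in the 109 and 594 hematopoietic or erythroid cells. Without the cells holding Rgs5, Acta2, Myh11 or Tagln, the teriparatide preOB-like level was 24.8 CPM (13.9 to 40.9) against 31.4 CPM (15.7 to 56.2) in MALP-like cells, so that the order turned. The preOB-like values rest on few cells, since 10 of 30 and 13 of 43 cells held a UMI and 5 cells held 76.7% and 69.0% of the UMIs.

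Hes1 (ENSMUSG00000022528, chromosome 16 from 30064384 to 30067796, plus strand), a repressor that many signals besides Notch can induce, had more UMIs than any other member. Among the 4 classes the MALP-like cells were highest at 229.7 CPM (208 to 253) and 208 CPM (183 to 236), which was 1.76-fold (1.51 to 2.06) and 2.03-fold (1.71 to 2.42) above the OB-like cells. As with Notch2, the osteocyte-like cells stood above the mature OB-like cells, with 272 CPM (190.2 to 376) and 289 CPM (237 to 349) against 121 CPM (106 to 137) and 73.5 CPM (63.0 to 85.3). The ratios were 2.24 (1.53 to 3.19) and 3.93 (3.06 to 5.03). Of the osteocyte-like UMIs of Hes1, 5 cells held 72.2% and 62.6%. Above the MALP-like cells the osteocyte-like cells stood 1.18-fold (0.817 to 1.66) in the vehicle, which is within counting error, and 1.39-fold (1.10 to 1.75) in the teriparatide library. Within the COP-like cells the columnar side held 77.0 CPM (63.7 to 92.3) and 84.0 CPM (76.7 to 91.8), and the resting side 16.9 CPM (5.49 to 39.4) and 21.9 CPM (15.6 to 29.8). This 4.56-fold (1.90 to 14.3) and 3.84-fold (2.78 to 5.44) difference ran opposite to that of Notch2, which in the vehicle library was within counting error. At equal depth, Hes1 was seen in 22.4% (11.8 to 36.6) and 19.6% (14.0 to 26.1) of the columnar-side cells and in 6.67% (0.169 to 31.9) and 4.41% (0.919 to 12.4) of the resting-side cells. One resting-side cell held 20 of the 40 teriparatide UMIs.

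Early-response genes, which tissue digestion can induce, were counted beside Hes1. The 11 genes (Fos, Fosb, Jun, Junb, Egr1, Ier2, Atf3, Zfp36, Dusp1, Hspa1a and Hspa1b) together held 28479 and 19372 CPM in the osteocyte-like cells against 5379 and 1593 CPM in the mature OB-like cells. Among COP-like cells they held 24774 and 23051 CPM on the resting side and 21453 and 20329 CPM on the columnar side, and in the MALP-like cells 6740 and 3177 CPM. Between osteocyte-like and mature OB-like cells they moved with Hes1, and between the COP-like sides they did not. Their part in the Hes1 levels was not tested. The osteocyte-like cells were also shallower, with median depths of 5595 and 7129 UMIs against 14706 and 22151 UMIs in the mature OB-like cells.

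**Figure D2:**
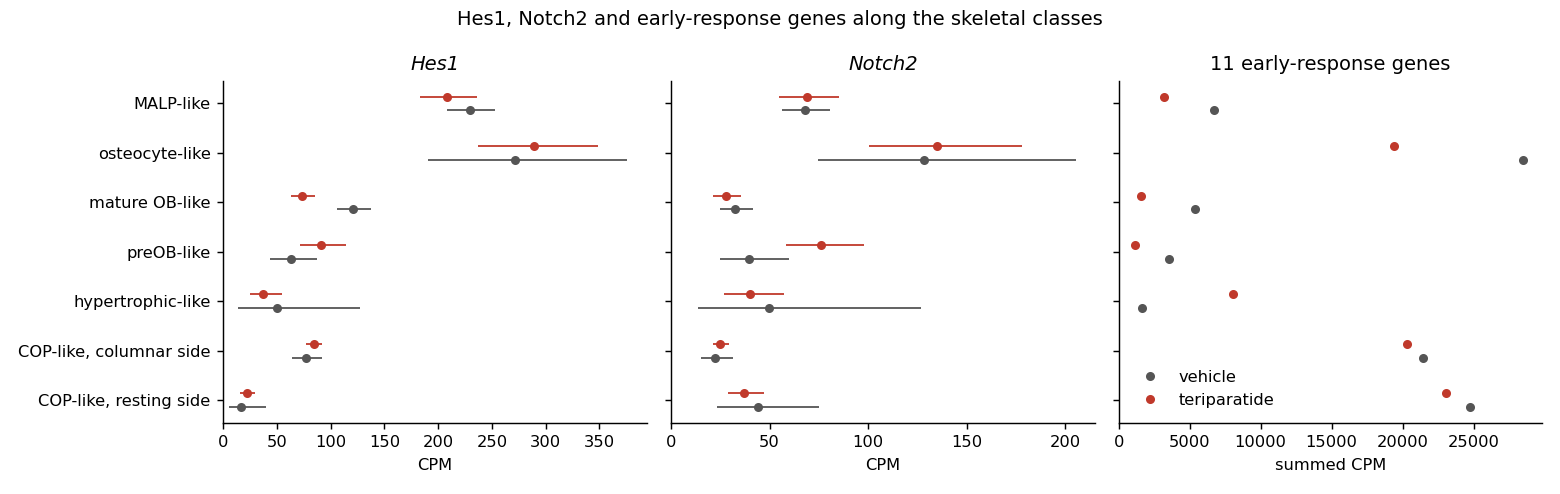
Level in CPM with exact Poisson 95% intervals of Hes1 and Notch2, and the summed CPM of 11 early-response genes, in 7 skeletal classes (y axis) of the vehicle (grey) and teriparatide (red) library. Hes1 and Notch2 were both higher in osteocyte-like than in mature OB-like cells and moved in opposite directions between the 2 sides of the COP-like cells.

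With at least 50 UMIs over the 4 classes, 7 of the 9 members could be ordered. Of these, 6 had the same highest class in both libraries, against 65.9% of the 11038 genes that met this limit. All 6 led by 1.5-fold or more in both libraries, as did 23.8% of the genes. For 5 members (Notch1, Notch3, Jag1, Hes1 and Heyl) the MALP-like cells were highest in both libraries, against 36.3% of the genes. Notch2 was the member whose highest class differed. These orders depended on how the cells were divided. With clusters in place of gates, where the preOB-like cluster held 161 cells, Notch3 was highest in the preOB-like cells in both libraries (1.19-fold and 1.31-fold over the next class), as was Jag1 in the vehicle library (1.16-fold), and the lead of Heyl in the MALP-like cells was 2.30-fold and 1.13-fold. After thinning, Notch1 and Jag1 were highest in the preOB-like cells of the teriparatide library, and among female cells of that library Hes1 was highest in the OB-like class.

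The libraries were then compared within each class, which asks what differed after teriparatide. A member with at least 50 UMIs in a class was counted when the ratio of its levels passed 1.5-fold, and no p-value can be given. In the MALP-like cells, 1 of 6 members passed this limit, against 17.5% of all genes. That member was Heyl, with a log2 ratio of teriparatide over vehicle of -0.87 (-1.25 to -0.50). The ratio was -0.97 (-1.50 to -0.44) between male cells, at 104 and 53.0 CPM, and 0.41 (-0.44 to 1.17) between female cells, at 149 and 199 CPM, of which the teriparatide library had 7. The class itself differed between the libraries, with 16 of 164 vehicle and 24 of 85 teriparatide cells near the limit of the gate, and with its marker Adipoq at 3163 and 1143 CPM. The summed early-response genes were lower in the teriparatide MALP-like cells and the mural genes higher, as given above. The part of these measures in the ratio was not tested. Notch3 in the same cells had a log2 ratio of 0.37 (0.01 to 0.73), with 0.56 (0.07 to 1.07) between male and -0.19 (-1.55 to 0.91) between female cells. Over all MALP-like cells Heyl and Notch3 thus had ratios of opposite sign. Notch1 (0.49, -0.07 to 1.04), Notch2 (0.02, -0.40 to 0.43), Jag1 (-0.20, -0.79 to 0.36) and Hes1 (-0.14, -0.37 to 0.09) had intervals that included 0. For Hes1 this sum covered opposite values of the sexes, with 0.36 (0.05 to 0.67) between male and -1.82 (-3.15 to -0.75) between female cells. The median log2 ratio was -0.07 over all genes of the class.

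In the preOB-like cells, 3 of 4 members passed 1.5-fold, against 27.8% of the genes. Notch2 was higher in the teriparatide library by 0.95 (0.22 to 1.72) on the log2 scale and Notch3 by 1.04 (0.13 to 2.02), whereas Hey1 was lower, at -0.60 (-1.39 to 0.19). Without the cells that held Rgs5, Acta2, Myh11 or Tagln, Notch2 was at 0.40, and with clusters at 0.58, both under the limit. It was higher between male cells (1.45, 0.13 to 3.14) and within counting error between female cells (0.29, -1.20 to 1.70). For Notch3, without the cells holding mural genes, the log2 ratio was -0.04. For Hey1 it was -1.40 (-2.44 to -0.33) between male and 0.10 between female cells. Hes1, the fourth, was at 0.53 (-0.07 to 1.15). The summed early-response genes were at 3567 and 1160 CPM in these cells, and their part was not tested. The median of all genes was -0.11, and setting it to 0 added Hes1 to the members past the limit and removed Hey1. These cells numbered 30 and 43, and 14 and 15 of them lay near the limit of the gate.

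In the OB-like and COP-like cells, 0 of 2 members (Notch2 and Hes1) passed the limit, against 18.2% and 25.2% of the genes. Hes1 in the OB-like cells was lower in the teriparatide library, with a log2 ratio of -0.35 (-0.59 to -0.10). It was -0.31 (-0.69 to 0.09) between male and 0.53 between female cells. Taken apart, it was at -0.72 (-1.01 to -0.43) in the mature OB-like and 0.09 (-0.47 to 0.68) in the osteocyte-like cells. Between male mature OB-like cells it was -0.34 (-0.79 to 0.12) and between female cells, of which the teriparatide library had 3, -0.54 (-1.62 to 0.38). The early-response genes were also lower in these cells, as given above. In the COP-like cells Hes1 stood at 67.2 and 69.2 CPM (0.04, -0.24 to 0.34) and Notch2 at 25.9 and 28.0 CPM (0.11, -0.35 to 0.60), while the median of all genes was -0.21. Between male COP-like cells the ratio of Hes1 was 0.35 (-0.01 to 0.73) and that of Notch2 was 0.20 (-0.31 to 0.75). Notch2 in the OB-like cells was at 0.13 (-0.29 to 0.56), with 0.09 (-0.57 to 0.80) between male and 1.16 (0.24 to 1.99) between female cells, of which the teriparatide library had 8. Both members thus stayed within counting error among all COP-like cells.

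**Figure D3:**
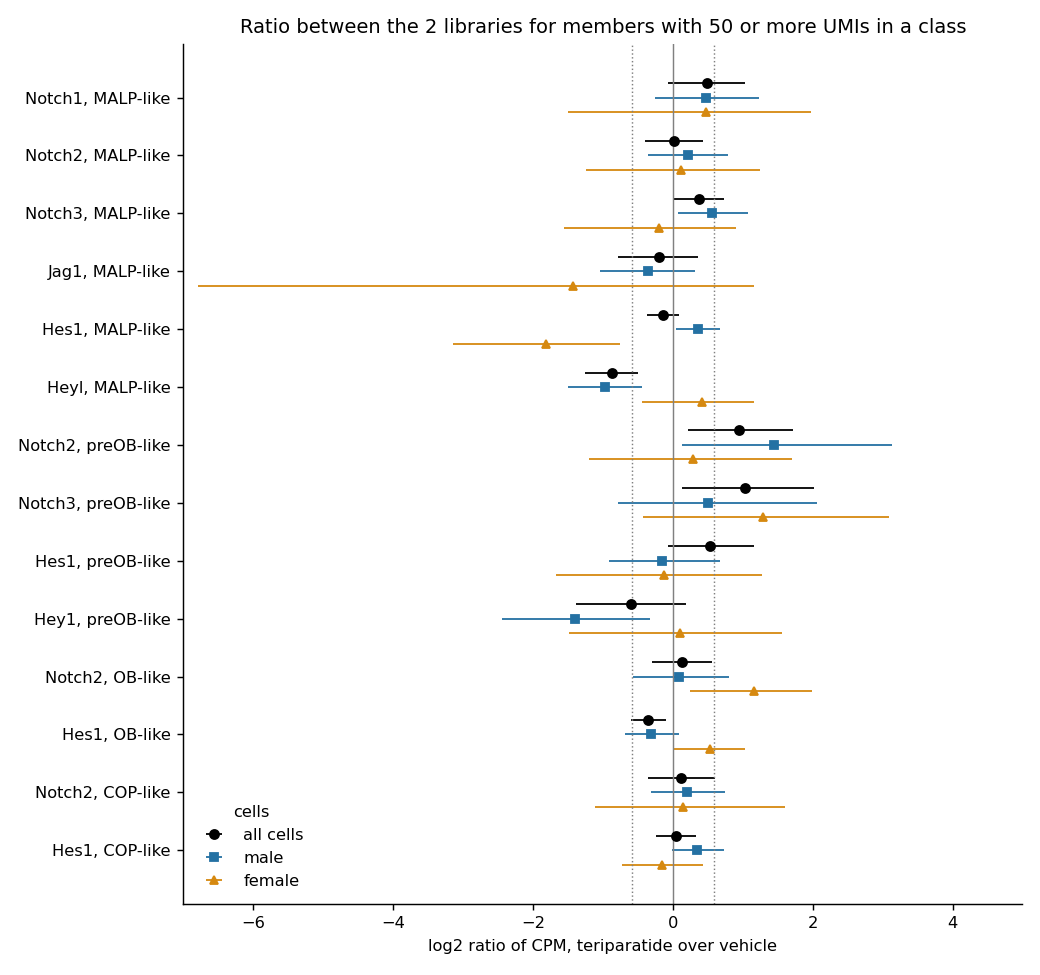
Log2 ratio of CPM (x axis), teriparatide over vehicle, for each member with 50 or more UMIs in a class (y axis), over all cells (black), male cells (blue) and female cells (orange), with exact conditional 95% intervals for counting error. Dotted lines mark 1.5-fold. Heyl in the MALP-like cells lay at -0.87 over all cells but at 0.41 between female cells.

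The other genes of the pathway were taken as a list of 50 (ligands, proteases and trafficking, sugar transferases, the Rbpj complex, regulators and further Hes and Hey genes). In 36 of them the 4 classes held at least 50 UMIs, and 24 of these had the same highest class in both libraries, a share close to the 65.9% of all genes. That class was MALP-like for 15 (36.3% of all genes), COP-like for 5, preOB-like for 4 and OB-like for 0. Rbpj itself, the DNA-binding partner of all 4 receptors, led in MALP-like cells, with 139.5 CPM (123 to 158) and 141 CPM (121 to 164), and was at 52.2 and 49.2 CPM in the preOB-like, 31.9 and 33.7 CPM in the COP-like and 21.0 and 21.5 CPM in the OB-like cells. Its log2 ratio between the libraries was between -0.09 and 0.08 in the 4 classes.

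Between the libraries, 3 genes of the list were higher and 3 lower by 1.5-fold among 32 in the MALP-like cells, 1 and 1 among 14 in the preOB-like, 2 and 0 among 27 in the OB-like, and 3 and 5 among 33 in the COP-like cells. The shares of all genes past the limit, either way, were 17.5%, 27.8%, 18.2% and 25.2% in this order, and the counts of the list were close to or below them. None passed the limit in the same direction in 3 classes. Named after their values were seen, the MALP-like genes were Lfng, Psen2 and Maml1 (higher) and Ccnc, Fbxw7 and Rfng (lower). The intervals of Fbxw7 (-0.83, -1.83 to 0.09) and Rfng (-0.64, -1.36 to 0.04) included 0. Lfng, which adds a sugar to Notch receptors and alters which ligands they answer, went from 31.5 CPM (23.9 to 40.7) to 78.1 CPM (63.1 to 95.5), a log2 ratio of 1.31 (0.82 to 1.81). It was 1.74 (0.98 to 2.57) between male and 1.16 (-0.59 to 2.58) between female cells. Psen2, a subunit of the protease that frees the intracellular part, was higher by 0.80 (0.18 to 1.42). In the OB-like cells the 2 genes were the protease gene Adam10 (0.69, 0.38 to 1.01) and Ncstn (1.09, 0.46 to 1.76), another subunit of that protease. Adam10 was at 0.45 (-0.01 to 0.93) between male cells, under the limit, and at 1.30 (0.59 to 1.97) between female cells. Ncstn was at 1.01 (0.05 to 2.13) between male and 0.36 (-2.07 to 2.16) between female cells. Aph1b (1.05, 0.10 to 2.16), Maml1 (0.67, -0.30 to 1.79) and Maml3 (0.67, -0.48 to 2.06) were the genes higher in the COP-like cells. Adam10 (-0.82, -1.42 to -0.20) was lower there, opposite to the OB-like cells. Adam17 (-0.63, -1.08 to -0.16), Ccnc (-1.29, -1.74 to -0.83) and Numbl (-0.73, -1.31 to -0.12) were lower too, and 1 more is not reported here. In the preOB-like cells Adam17 was higher (0.68, -0.17 to 1.60) and Hes6 lower (-0.92, -1.70 to -0.16). Between male cells Adam17 was at 0.29 (-0.93 to 1.72) and Hes6 at -0.01 (-1.36 to 1.59), both under the limit. Between female cells they were at 0.68 (-1.01 to 2.34) and -3.12 (-8.51 to -0.44), the latter on 16 and 1 UMIs. Apart from these genes, Adam10, Ncstn and Lfng, the listed genes are given over both sexes only.

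**Figure D4:**
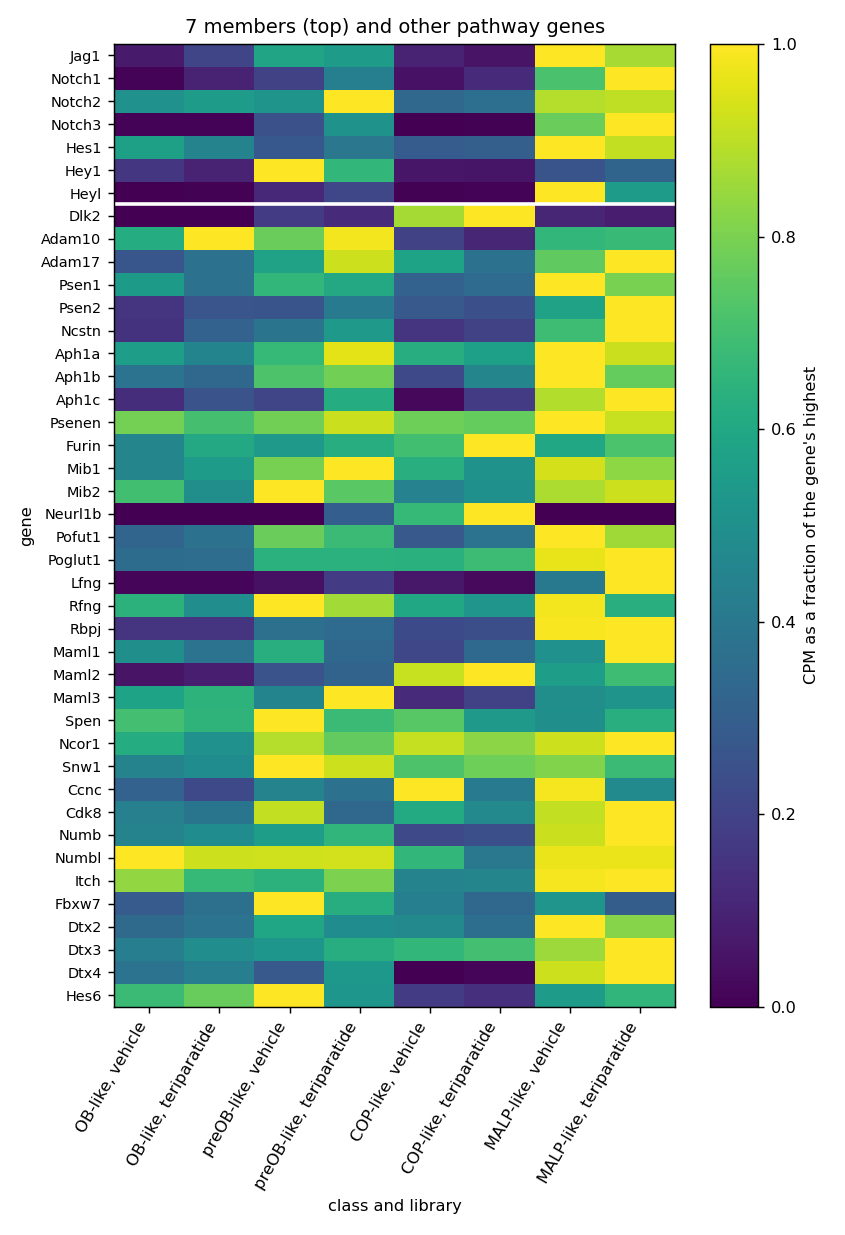
CPM of the 7 members (above the white line) and of other pathway genes with at least 50 UMIs over the 4 classes, 1 of which is not shown (rows), each as a fraction of the gene's highest value, in the 4 classes of both libraries (columns). The MALP-like columns are the brightest for Notch1, Notch3, Jag1, Hes1, Heyl and Rbpj, and the COP-like columns for Dlk2.

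The genes whose levels were most like those of the members were found by Pearson's r of log2(CPM + 1) over 14 points (7 classes in both libraries) among 8364 genes. The points share libraries, so r is a description. Notch3 was closest to Col8a1 (0.98), Angpt4 (0.97) and Thsd7a (0.97), and Heyl to Pdzrn4 (0.99), C1s1 (0.98) and Ptgfr (0.98). For Hey1 the closest were the growth factor gene Ptn (0.98) and the matrix genes Col3a1 (0.98) and Fbln1 (0.98). For Jag1 they were Sulf1 (0.97), Cp (0.97) and Limch1 (0.96). Notch2 was closest to Psenen (0.98), which codes for a subunit of the protease that cuts Notch receptors, and then to Arf3 (0.98) and Lamtor2 (0.98). For Notch1 they were Rasgrp2 (0.98), Syne2 (0.97) and Gcnt2 (0.97), and for Hes1 Rsrc1 (0.99), Tulp4 (0.98) and Lpp (0.98).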

How the data were processed

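Single-cell RNA-seq of sorted cells was analysed from 1 vehicle and 1 teriparatide library, with 10567335 and 26270041 UMIs in 1286 and 2142 barcodes. The authors deposited UMI counts per gene and cell on mm10, made with Cell Ranger (version 2.1.0 per the labels and 3.1.0 in the header of the matrices). Per the study's methods each group had several mice, with the same mix of males and females in both groups. The cells of single mice cannot be told apart in a library, and the shares of male cells differed between the libraries despite this design. The 9 members and all gene lists were chosen with earlier results of these data known.

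Cells with 200 to 6000 genes and at most 10% mitochondrial UMIs were kept, and 55.8% and 40.2% of barcodes were over the latter limit. Classes were gated cell by cell on fixed markers, with Seurat 5.3.0 clusters as an alternative. Scrublet (Scanpy 1.11.5) called 3 and 0 doublets, which were left in. Counts were summed per class and library and divided by the class total. Intervals (SciPy 1.17.1) are exact Poisson for levels, Clopper-Pearson for shares and conditional binomial for ratios, and 3 counts stand for a sum of 0. For shares, cells were also thinned to 4600 UMIs and shallower cells left out. A cell was called male from UMIs of Y-linked genes (Kdm5d, Uty, Ddx3y, Eif2s3y) without Xist, and female from Xist without those. A ratio between libraries was counted from 1.5-fold with at least 50 UMIs in the class. Scripts were tested on simulated data. The genes named are all members, Rbpj, the Dll and Dlk ligands, the 3 genes most like each member, and pathway genes chosen after their values were seen. The values of 1 pathway gene are not reported here, and it is included in the counts. The alternatives without osteocyte-like cells and without cells holding mural genes (Rgs5, Acta2, Myh11 or Tagln) were chosen after seeing the data.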

Additional observations from a re-analysis of the deposited data

Results flagged for a closer look

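Hes1 in the MALP-like cells had ratios of opposite sign in the sexes. The log2 ratio of teriparatide over vehicle was 0.36 (95% counting interval 0.05 to 0.67) between male cells, at 180.5 and 232 CPM in 58 and 65 cells. It was -1.82 (-3.15 to -0.75) between female cells, at 306 and 86.9 CPM in 72 and 7 cells, and the last value rests on 7 UMIs. The difference between the sexes was not tested.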

How the results depend on the processing

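No paired analysis was possible because each condition had 1 library. The number of members with the same highest class in both libraries was 3 of 6 tested after thinning (Notch3, Hes1 and Heyl) and 4 to 6 under the other settings, where the class itself could move (Notch3 with clusters). In the OB-like cells, the number of members past 1.5-fold went from 0 to 1 in female cells (Notch2) and without the osteocyte-like cells (Hes1, lower), to 2 with a minimum of 20 UMIs and to 4 with no minimum. In the preOB-like cells it went from 3 to 0 without the cells holding mural genes (2 members tested), and was 0 after thinning and in female cells because no member reached 50 UMIs there. It went to 1 in male cells and at a fold limit of 2, and to 5 with a minimum of 20 UMIs or none. Clusters in place of gates gave 2 other members there (Hes1 higher, Jag1 lower). In the COP-like cells it went from 0 to 2 with 20 UMIs and 3 with no minimum, and in the MALP-like cells from 1 to 0 at a fold limit of 2 and to 2 with no minimum, and in female MALP-like cells the member counted was Hes1 in place of Heyl. With a minimum of 20 UMIs, 4 members were tested in the OB-like, 7 in the preOB-like, 5 in the COP-like and 7 in the MALP-like cells. With no minimum these numbers were 8, 7, 7 and 8, and in male preOB-like cells 2 were tested. The share of all genes past the limit is not given for these other settings, so the counts cannot be read against it. Without the cell holding the most UMIs of each gene, Notch3 and Hey1 in the preOB-like cells fell under 50 UMIs. Hes1 then passed 1.5-fold there beside Notch2. Leaving out the doublets also added Hes1 to the preOB-like members past the limit. For the other changes the cause was not tested. The ratio of Notch3 in preOB-like cells was -0.039 without the cells holding mural genes, on 6 and 8 UMIs, fewer than the minimum of 50. That of Hey1 in preOB-like cells turned to 0.10 in female cells, on 12 and 7 UMIs. That of Heyl in MALP-like cells turned to 0.41 in female cells. Of 128 ratios recomputed, 110 moved by less than their counting interval, as did 247 of 288 levels and 232 of 288 shares. These totals include settings that changed few cells, such as leaving out the doublets, under which all 72 levels and all 72 shares did so. After thinning, 43 of 72 levels and 21 of 72 shares did so, and in female cells 6 of 14 ratios. The totals are thus no measure of stability under thinning or within 1 sex. Depth limits Jag2 and Notch4 throughout, and Jag1, Hey1 and Notch1 outside their highest classes.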

Other observations

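Members were also compared between female and male cells of one library. Of 31 ratios, 10 had an interval without 0, 8 with the higher level in female and 2 in male cells. The share of all genes with such an interval is not given, so these counts are not read as a trait of the members. In the COP-like cells Hes1 was higher in female cells in both libraries, by 1.56 (0.95 to 2.16) and 1.05 (0.72 to 1.37) on the log2 scale. These values rest on 9 and 22 female against 53 and 221 male cells. With teriparatide, 21 of the 100 UMIs in female COP-like cells were in the 2 on the resting side. In the MALP-like cells Hes1 was higher in female cells of the vehicle library, by 0.76 (0.46 to 1.07), and lower in those of the teriparatide library, at -1.42 (-2.75 to -0.35). Heyl in the MALP-like cells was higher in female cells in both, by 0.53 (0.12 to 0.94) and 1.91 (1.00 to 2.74). Hes1 was also higher in female OB-like cells with teriparatide, by 1.06 (0.53 to 1.55), and lower in female preOB-like cells with vehicle, at -1.14 (-2.25 to -0.07). Notch2 was higher in female OB-like cells with teriparatide, by 1.02 (0.15 to 1.79), and Notch3 in female MALP-like cells with vehicle, by 0.54 (0.04 to 1.06). Of the teriparatide OB-like cells, 5 of 8 female and 22 of 93 male cells were osteocyte-like. Female against male, Hes1 was at 96.4 against 76.8 CPM in the mature OB-like and 330 against 308 CPM in the osteocyte-like cells. Notch2 was at 38.6 against 28.6 CPM and at 132 against 154 CPM. The part of this mix in the OB-like ratios was not tested. Sex and mouse cannot be told apart in these libraries.

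The few mural-like cells also held Jag1 at 146 and 70.0 CPM, Heyl at 195 and 87.5 CPM and Hey1 at 195 and 35.0 CPM, with 2 to 12 UMIs behind each value. Among the cells that met no gate, 64 and 75 in number, Notch3 stood at 25.2 and 63.5 CPM and Hes1 at 65.6 and 155 CPM. Dlk2 was at 136 and 24.9 CPM in the hypertrophic-like cells, of which there were 5 and 22.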
